A study of Homo sapiens with 18 samples.

Results

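The genes described here are 6 keratin genes (KRT7, KRT8, KRT18, KRT19, KRT80 and KRT81) and 4 genes linked with luminal epithelial cells (FOXA1, GATA3, EPCAM and CD24). They were chosen by name, with earlier results of these data known, and make up 10 of the 60709 genes with counts. The cells were MDA-MB-231, a triple-negative human breast cancer line, carrying a short hairpin RNA. The sh-IGFBP6 line carries a hairpin against IGFBP6, whose secreted product binds insulin-like growth factors, and the sh-LUC line carries one against luciferase and serves as the hairpin control. Each line was treated for 24 h with 2.5 µM erastin, an inhibitor of cystine import that triggers ferroptosis, with the omega-3 fatty acid DHA (docosahexaenoic acid) at 200 µM, or with a vehicle of 0.5% DMSO and 0.5% ethanol. That gave 6 groups of 3 libraries. The labels name 1 line per hairpin, so the hairpin and any other difference between the lines cannot be told apart. Whether a group's 3 libraries were grown as separate cultures is not stated, so each p-value measures only the spread between these libraries, which may be technical.

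Keratins are the intermediate filament proteins of epithelia. A filament is built from pairs of a type I and a type II chain. KRT8 and KRT18 are the type II and type I chains of the pair that simple epithelia, luminal breast cells among them, make most widely. KRT7 and KRT80 are further type II chains, KRT19 is a small type I chain, and KRT81 is a type II chain known from hair. FOXA1 is a pioneer transcription factor that opens chromatin for the oestrogen receptor in luminal cells, and GATA3 is a zinc finger factor needed for luminal differentiation. EPCAM is an epithelial adhesion molecule, and CD24 is a small, heavily glycosylated surface protein; a low level of CD24 is one of the marks by which breast cancer stem-like cells are sorted.

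The files hold counts per gene from rRNA-depleted RNA, between 609936 and 7977429 counts per library. The lowest total belonged to replicate 3 of sh-IGFBP6 erastin, where the mitochondrial ribosomal RNA genes (MT-RNR1, MT-RNR2) took 54.4% of counts; they took 0.0349% to 0.504% of each of the remaining 17. Main results that use sh-IGFBP6 erastin are therefore also given without that library, and other results keep it. IGFBP6 itself checked the labels. It lay at 0.537, 0.418 and 3.79 CPM (counts scaled by TMM effective library size) in sh-IGFBP6 erastin (the last from 1 count), at 0.896, 1.16 and 0.748 CPM in sh-IGFBP6 DHA and at 0.599, 1.34 and 2.2 CPM in sh-IGFBP6 control. The sh-LUC libraries ranged from 12.2 to 20.8 CPM, above every sh-IGFBP6 library. Among cell markers, VIM, a mesenchymal filament gene, averaged 752 to 1348 CPM by group, and CDH1, ESR1 and PGR stayed at or below 5.93, 1.98 and 0.711 CPM. Of the claudins that are low in the claudin-low class to which this line is usually assigned, CLDN3 averaged 0.506 to 1.7 CPM by group, CLDN4 42.3 to 103 CPM and CLDN7 4.06 to 23.2 CPM. The 4 fibroblast markers summed to 0.898 to 1.53 CPM in sh-IGFBP6 control and 32.6 to 39.1 CPM in sh-LUC control, mainly PDGFRB, and the part of this gap in the results below was not tested. Among leukocyte markers, PTPRC averaged 0.0998 CPM in sh-IGFBP6 control and 2.29 CPM in sh-LUC control, CD14 1.34 CPM in sh-IGFBP6 control and 2.13 CPM in sh-LUC control, and CD3E and LYZ at most 0.197 CPM in any group. The 3 endothelial markers summed to 0 to 5.64 CPM over all libraries. The 3 basal markers KRT5, KRT14 and TP63 summed to 0 to 0.489 CPM in sh-IGFBP6 control and 4.48 to 7.04 CPM in sh-LUC control. TP63 made that gap, at 0.0639 CPM in sh-IGFBP6 control and 5.19 CPM in sh-LUC control, while KRT14 averaged 0.163 CPM in sh-IGFBP6 control and 0.159 CPM in sh-LUC control and KRT5 was at 0 in both.

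The promoter windows of FOXA1 and CD24 are shown because each gene was near absent from 1 of the 2 lines and has a window in the table. FOXA1 lies at chr14:37589984-37596059 on the minus strand (GRCh38, GENCODE 29, whole gene span, as for all genes below), and CD24 at chr6:106969831-106975627 on the minus strand. Each window runs 5′ to 3′ from 250 bases before to 50 bases after a RefSeq start site on GRCh38.p14, at chr14:37595200-37595499 for FOXA1 and at chr6:106975578-106975877 for CD24, the most upstream of its 3 listed windows. Capitals mark GC boxes (GGGCGG, either strand) and, in CD24, a match to the antioxidant response core TGACNNNGC on the opposite strand.
FOXA1: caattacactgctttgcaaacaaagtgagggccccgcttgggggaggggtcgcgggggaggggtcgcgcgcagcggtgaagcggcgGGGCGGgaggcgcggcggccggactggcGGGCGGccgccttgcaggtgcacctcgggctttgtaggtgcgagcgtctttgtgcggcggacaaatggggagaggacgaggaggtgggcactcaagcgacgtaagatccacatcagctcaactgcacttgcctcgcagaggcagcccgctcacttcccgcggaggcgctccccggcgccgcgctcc
CD24: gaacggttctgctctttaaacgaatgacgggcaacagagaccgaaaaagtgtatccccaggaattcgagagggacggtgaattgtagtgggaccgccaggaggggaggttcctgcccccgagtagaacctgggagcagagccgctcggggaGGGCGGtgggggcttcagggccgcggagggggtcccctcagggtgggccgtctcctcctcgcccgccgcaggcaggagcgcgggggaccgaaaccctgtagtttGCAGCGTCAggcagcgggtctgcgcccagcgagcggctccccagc
The FOXA1 window holds 34 CpG dinucleotides, more than 84.4% of the 35116 windows of this length in the table, and a GC content of 69.3%. The CD24 window holds 25 CpG, more than 68% of windows, and a GC content of 66.7%. The median window holds 14 CpG. FOXA1 has 2 GC boxes and CD24 has 1, a motif present in 45% of all windows, and the antioxidant response core is present in 13.3%. Neither window holds the AP-1 letters TGANTCA, found in 7.71% of windows. Nor does either hold the letters AGATAA read by GATA factors (10.3% of windows), the forkhead letters TGTTTAC (3.42%) or a TATA box, searched as TATAAA (11.5%). Of the 10 genes, 4 had windows in the table (FOXA1, CD24, GATA3 and KRT8). Windows were searched on both strands, and a match describes letters only.

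In vehicle, all 10 genes differed between the lines. FOXA1 and EPCAM were higher and the other 8 were lower in sh-IGFBP6 than in sh-LUC, and no library of one line overlapped those of the other for any of the 10. The test was edgeR's quasi-likelihood F test with Benjamini-Hochberg adjustment over 15189 genes, called at an adjusted p below 0.05. The lines differed broadly: 64.6% of all tested genes were called (32.5% higher, 32.1% lower) and 67.3% did not overlap, so the number called says little of these genes, and their sizes are what follows. The median log2 fold change was -1.39 over the 10 genes and 0.01 over all tested genes. The genes were chosen with earlier results of these data known, so the median of the 10 is a description only. In bulk RNA, fewer cells that make a transcript and less transcript per cell cannot be told apart.

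**Figure D1:**
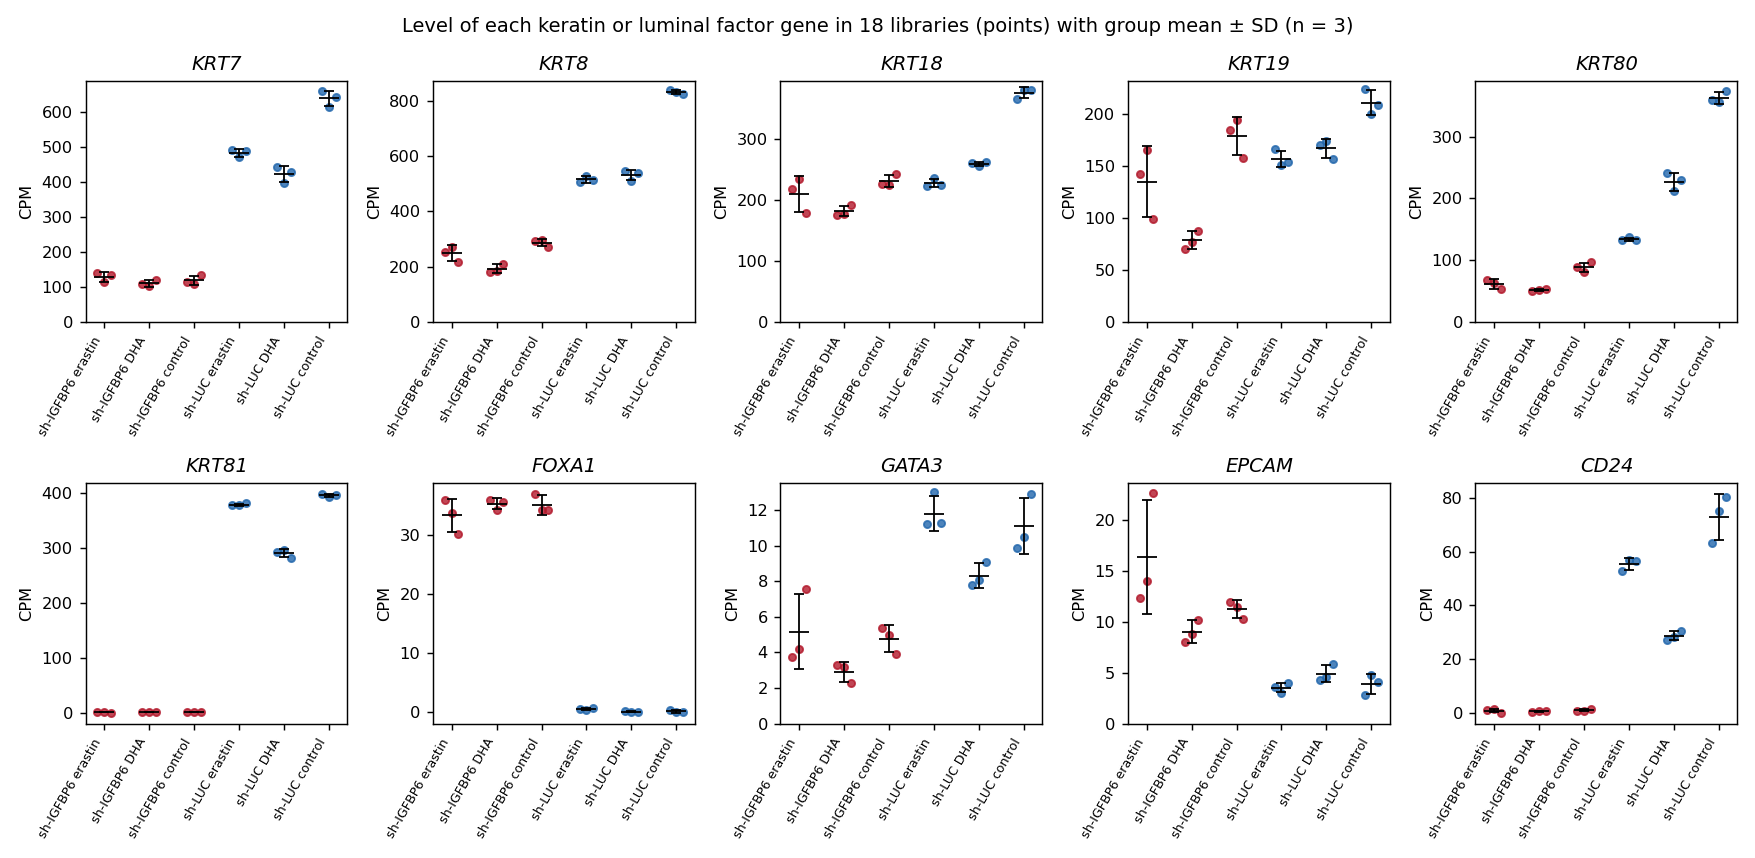
Level in CPM (scaled counts, linear axes from 0) of each of the 10 genes in all 18 libraries; points are libraries, bars the group mean ± SD (n = 3), red sh-IGFBP6 and blue sh-LUC, each with erastin, DHA and control from left to right. FOXA1 lies at 30.3 to 37.1 CPM in every sh-IGFBP6 library and below 1 CPM in every sh-LUC library, and KRT81 the other way round, at 0 to 1.61 CPM in sh-IGFBP6 and 282 to 399 CPM in sh-LUC libraries.

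Among the type II keratins, KRT81 (ENSG00000205426.10, chr12:52285913-52291534) showed the widest gap. It had 0.898, 1.34 and 0.979 CPM in sh-IGFBP6 control, from 3, 7 and 4 counts, against 399, 393 and 396 CPM in sh-LUC control. The log2 fold change was -8.45 (SE 0.13, edgeR's adjusted p = 1.6e-91). KRT81 was thus at the edge of detection in sh-IGFBP6 control, while it was the most abundant of the 6 keratins per kb of exon in sh-LUC control. Of its 50-base words, 43.7% also occur in other genes, 37.6% in KRT86, so the division of reads between these hair keratins is uncertain. KRT86 had 6 counts in sh-IGFBP6 control and 396 in sh-LUC control, that is, it differed in the same direction (log2 fold change -6.26, SE 0.28, edgeR's adjusted p = 6.8e-43).

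KRT7 (ENSG00000135480.16, chr12:52232520-52252186) had 115, 109 and 133 CPM in sh-IGFBP6 control and 659, 616 and 643 CPM in sh-LUC control. That is a log2 fold change of -2.43 (SE 0.06, edgeR's adjusted p = 1.2e-60). KRT80 (ENSG00000167767.14, chr12:52168996-52192000), a type II chain found near cell junctions of epithelia, differed by nearly as much. It had 88.6, 81.4 and 96.2 CPM in sh-IGFBP6 control and 359, 356 and 374 CPM in sh-LUC control (log2 fold change -2.04, SE 0.07, edgeR's adjusted p = 1.3e-56). KRT8 (ENSG00000170421.12, chr12:52897187-52949954), the broadest simple epithelial type II chain, had 293, 295 and 273 CPM in sh-IGFBP6 control and 839, 834 and 826 CPM in sh-LUC control. Its log2 fold change was -1.54 (SE 0.06, edgeR's adjusted p = 2.9e-52), smaller than those of the other 3 type II chains.

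The type I chains differed least. KRT18 (ENSG00000111057.11, chr12:52948871-52952901) had 227, 224 and 242 CPM in sh-IGFBP6 control and 366, 381 and 380 CPM in sh-LUC control (log2 fold change -0.70, SE 0.06, edgeR's adjusted p = 9.5e-22). KRT19 (ENSG00000171345.13, chr17:41523617-41528308), the only one of the 6 on another chromosome, had 185, 194 and 158 CPM in sh-IGFBP6 control and 224, 200 and 209 CPM in sh-LUC control. Those libraries did not overlap, but the gap was small. The log2 fold change was -0.23 (SE 0.07, edgeR's adjusted p = 0.00283), and the call was lost without replicate 3 of sh-IGFBP6 control (-0.13, adjusted p = 0.135) and with raw library sizes (-0.14, 0.609).

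The keratin pool was both smaller and differently made up in sh-IGFBP6. The 6 keratins summed to 906 ± 3.61 CPM in sh-IGFBP6 control and 2818 ± 34.7 CPM in sh-LUC control (SD, n = 3 each). The ratio of type II to type I counts was 1.21 ± 0.0451 in sh-IGFBP6 control and 3.8 ± 0.02 in sh-LUC control. It lay between 1.13 and 1.45 in all 9 sh-IGFBP6 libraries and between 3.31 and 4.01 in all 9 sh-LUC libraries. The 1.45 came from replicate 3 of sh-IGFBP6 erastin, which had 200 keratin counts. KRT81 gave 0.115% ± 0.0248 of all keratin counts in sh-IGFBP6 control and 13.7% ± 0.0577 in sh-LUC control, KRT7 12.7% ± 1.4 in sh-IGFBP6 control and 22.2% ± 0.451 in sh-LUC control, and KRT80 9.52% ± 0.847 in sh-IGFBP6 control and 12.6% ± 0.306 in sh-LUC control. The type I shares ran the other way. KRT18 gave 24.8% ± 1.16 in sh-IGFBP6 control and 13.0% ± 0.458 in sh-LUC control, and KRT19 19.2% ± 1.86 in sh-IGFBP6 control and 7.31% ± 0.337 in sh-LUC control. KRT8 held 30.8% ± 1.14 in sh-IGFBP6 control and 28.9% ± 0.458 in sh-LUC control, the closest of the 6. The ratio of KRT8 to KRT18 counts was 1.25 ± 0.102 in sh-IGFBP6 control and 2.22 ± 0.07 in sh-LUC control. These ratios and shares are of counts not scaled for exon length, so they compare libraries and do not give the balance of the chains. Per kb of exon, KRT8 lay below KRT18 in sh-IGFBP6 control (41.7 against 71.8 CPM per kb). In sh-LUC control the values were 121 for KRT8 and 117 for KRT18.

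**Figure D2:**
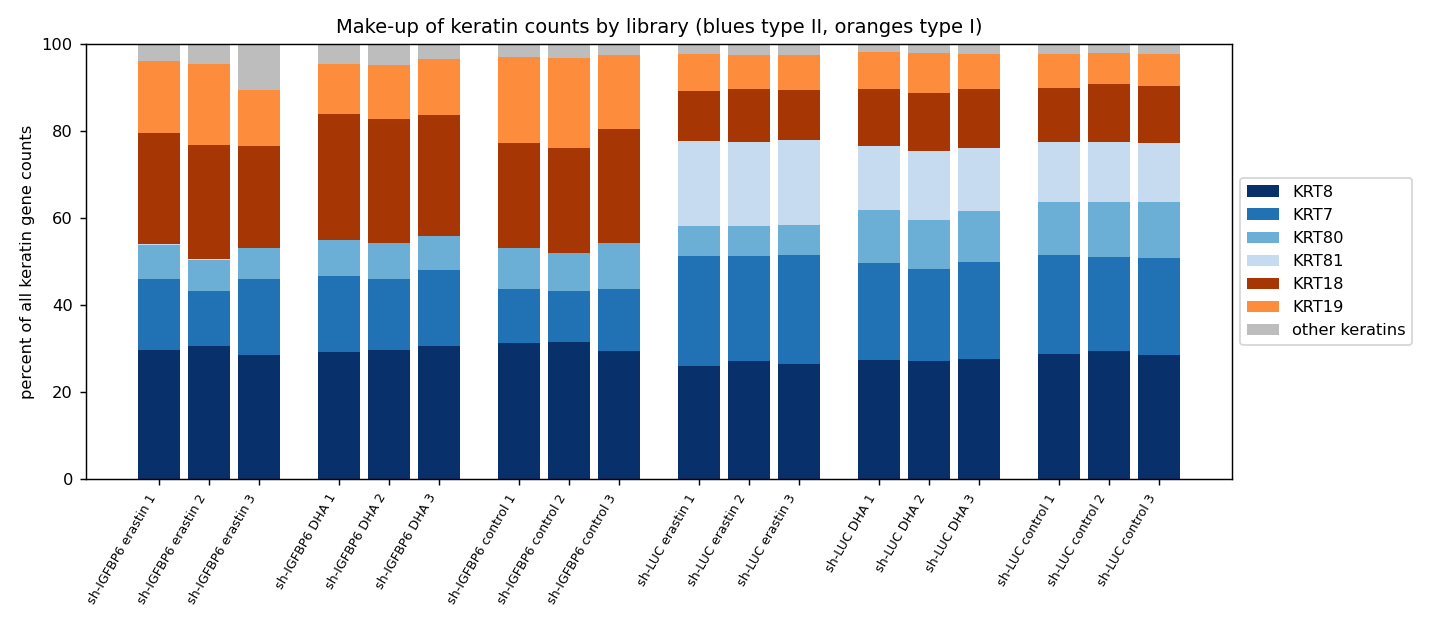
Share of all keratin gene counts (percent, vertical axis) in each of the 18 libraries, with type II chains in blues and type I chains in oranges. KRT81 is almost absent from the 9 sh-IGFBP6 bars, where KRT18 and KRT19 take a larger part; KRT8 stays near 26.0% to 31.6% throughout.

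Per kb of merged exon, a scale on which genes can be ranked within a group, KRT19 (76.6 ± 7.86 CPM per kb) and KRT18 (71.8 ± 2.94) led in sh-IGFBP6 control, and their libraries overlapped, as did those of the last 2, KRT81 and CD24. KRT8 (41.7 ± 1.84), KRT7 (29.0 ± 3.02), KRT80 (20.4 ± 1.69), FOXA1 (8.85 ± 0.412), EPCAM (4.47 ± 0.347), GATA3 (1.39 ± 0.221), KRT81 (0.556 ± 0.122) and CD24 (0.305 ± 0.149) followed. In sh-LUC control the order was KRT81 (205 ± 1.63), KRT7 (156 ± 5.35), KRT8 (121 ± 0.974), KRT18 (117 ± 2.7), KRT19 (90.3 ± 5.33), KRT80 (83.5 ± 2.3), CD24 (23.5 ± 2.8), GATA3 (3.22 ± 0.463), EPCAM (1.54 ± 0.395) and FOXA1 (0.0295 ± 0.051). There the libraries of KRT19 and KRT80 overlapped. The annotated exons of KRT8 include long alternative transcripts, which may lower its value per kb.

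FOXA1 (ENSG00000129514.8) was the reverse of KRT81. It had 37.1, 34.3 and 34.3 CPM in sh-IGFBP6 control, from 124, 179 and 140 counts, and 1, 0 and 0 counts in sh-LUC control. With 443 counts in sh-IGFBP6 control and 1 in sh-LUC control the ratio was 364 (exact binomial 95% interval 65.0 to 14404, counting error only). GATA3 (ENSG00000107485.18, chr10:8045378-8075203), which acts with FOXA1 at oestrogen receptor sites in luminal cells, differed in the opposite direction. GATA3 had 5.39, 4.98 and 3.92 CPM in sh-IGFBP6 control and 9.85, 10.5 and 12.9 CPM in sh-LUC control (log2 fold change -1.24, SE 0.23, edgeR's adjusted p = 8.8e-07).

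The surface genes also split. EPCAM (ENSG00000119888.11, chr2:47345158-47387601) had 12.0, 11.5 and 10.3 CPM in sh-IGFBP6 control and 2.81, 4.78 and 4.05 CPM in sh-LUC control, a log2 fold change of 1.5 (SE 0.24, edgeR's adjusted p = 3.6e-08). CD24 (ENSG00000272398.6) had 0.599, 0.767 and 1.47 CPM in sh-IGFBP6 control, from 2, 4 and 6 counts, and 63.3, 75.0 and 80.3 CPM in sh-LUC control. Its log2 fold change was -6.24 (SE 0.20, edgeR's adjusted p = 2.3e-56). So the 4 luminal genes moved in no common direction: FOXA1 and EPCAM were higher, and GATA3 and CD24 lower, in sh-IGFBP6.

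The gap between the lines was also read with each compound present. With DHA, 10 of the 10 genes were called, 2 higher and 8 lower in sh-IGFBP6 (69.9% of all genes called, 35.1% higher and 34.8% lower), and none of their libraries overlapped between lines (70.3% of all genes). With erastin 8 were called, 2 higher and 6 lower (67.6% of all genes called, 33.9% higher and 33.7% lower), and 8 did not overlap (60.1%). KRT18 (log2 fold change -0.03, SE 0.06, edgeR's adjusted p = 0.634) and KRT19 (-0.07, SE 0.07, adjusted p = 0.409) were the 2 that did not pass with erastin. The log2 difference of KRT80 was -1.03 (SE 0.07) with erastin, against -2.04 in vehicle, and that of KRT19 was -1.09 (SE 0.07) with DHA, against -0.23 in vehicle. FOXA1 had 438 counts in sh-IGFBP6 erastin and 11 in sh-LUC erastin, and 502 counts in sh-IGFBP6 DHA and 1 in sh-LUC DHA. Without replicate 3 of sh-IGFBP6 erastin 8 were again called with erastin, and the log2 differences of KRT18, KRT19 and KRT80 were -0.04, -0.07 and -1.05.

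**Figure D3:**
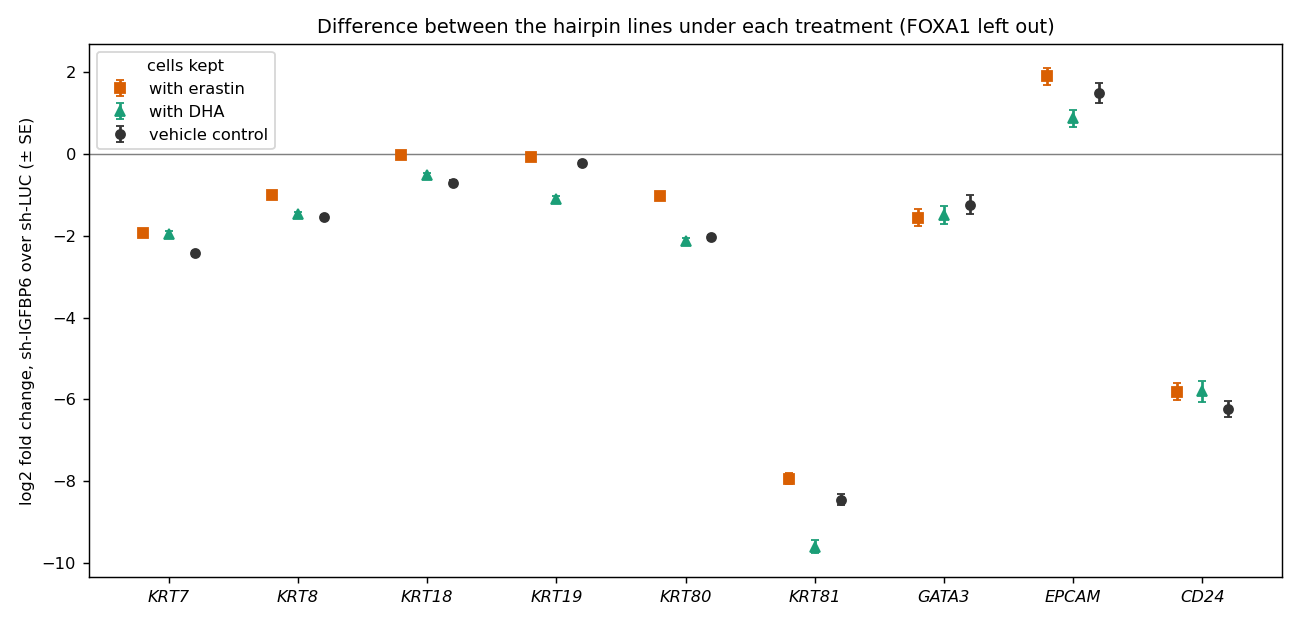
Log2 fold change of sh-IGFBP6 over sh-LUC (vertical axis, ± SE) for 9 genes with erastin (squares), with DHA (triangles) and in vehicle (circles); FOXA1 is left out because its sh-LUC counts were near 0. KRT18 and KRT19 lie near 0 with erastin (-0.03 and -0.07), and KRT81 and CD24 lie below -5 under all 3 conditions.

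Erastin in sh-LUC lowered 5 of the 6 keratins and CD24. 6 of the 10 genes were called, all lower (45.9% of all genes called, 21.4% higher and 24.4% lower), and 7 did not overlap (53.9%). The median log2 fold change was -0.41 over the 10 and -0.02 over all genes. Among the called genes KRT80 moved most, with 132, 137 and 133 CPM in sh-LUC erastin and 359, 356 and 374 CPM in sh-LUC control (log2 fold change -1.43, SE 0.06, edgeR's adjusted p = 2.9e-45). KRT18 had 223, 236 and 224 CPM in sh-LUC erastin and 366, 381 and 380 CPM in sh-LUC control (log2 fold change -0.72, SE 0.06, edgeR's adjusted p = 4.3e-23). No treated library reached a vehicle one for either gene. KRT8 fell by 0.69 (SE 0.05), KRT19 by 0.42 (SE 0.07) and KRT7 by 0.40 (SE 0.06) on the log2 scale, and CD24 by 0.41 (SE 0.09), with edgeR's adjusted p-values from 1.3e-23 to 2.0e-05. With raw library sizes KRT7 did not pass (-0.511, adjusted p = 0.0791) and the other 5 did.

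KRT81 was the keratin that did not pass. It had 379, 378 and 382 CPM in sh-LUC erastin and 399, 393 and 396 CPM in sh-LUC control; those libraries do not overlap, but the log2 fold change of -0.06 (SE 0.05, edgeR's adjusted p = 0.368) did not pass the test. KRT81 made up 19.5% ± 0.153 of keratin counts in sh-LUC erastin and 13.7% ± 0.0577 in sh-LUC control. KRT80 made up 6.9% ± 0.119 in sh-LUC erastin and 12.6% ± 0.306 in sh-LUC control. GATA3 (0.08, SE 0.17, adjusted p = 0.745) and EPCAM (-0.16, SE 0.28, adjusted p = 0.683) did not pass. FOXA1 had 4, 2 and 5 counts in sh-LUC erastin and 1, 0 and 0 in sh-LUC control, a ratio of 5.11 whose exact binomial 95% interval of 0.743 to 220 includes 1.

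DHA in sh-LUC lowered all 6 keratins and CD24. 7 of the 10 were called, all lower, where 16.8% of all genes were called, 7.14% higher and 9.63% lower; 8 did not overlap (30.0%). The median log2 fold change was -0.57 over the 10 and 0.01 over all genes. Among the called genes CD24 moved most, with 27.2, 28.2 and 30.4 CPM in sh-LUC DHA and 63.3, 75.0 and 80.3 CPM in sh-LUC control (log2 fold change -1.36, SE 0.09, edgeR's adjusted p = 1.8e-25). Each keratin had a smaller change than CD24. KRT80 fell by 0.68 (SE 0.06), KRT8 by 0.65 (SE 0.05), KRT7 by 0.60 (SE 0.06), KRT18 by 0.54 (SE 0.06), KRT81 by 0.44 (SE 0.05) and KRT19 by 0.33 (SE 0.07) on the log2 scale, with edgeR's adjusted p-values from 5.9e-21 to 9.1e-05. The 6 keratins summed to 1899 ± 54.0 CPM in sh-LUC DHA, 1898 ± 4.04 CPM in sh-LUC erastin and 2818 ± 34.7 CPM in sh-LUC control. Both compounds share the same control libraries. GATA3 (-0.43, SE 0.18, adjusted p = 0.0918) and EPCAM (0.32, SE 0.27, adjusted p = 0.477) did not pass, and FOXA1 had 1 count in each group. With raw library sizes only CD24 passed. The keratins' log2 fold changes were then -0.285 to -0.625, with SEs of 0.211 to 0.234 and adjusted p-values of 0.0568 to 0.59. The main SEs were 0.05 to 0.07, so the SEs changed far more than the fold changes.

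With erastin in sh-IGFBP6, 2 of the 10 genes were called, KRT80 and KRT19, both lower. That count is near the share of all genes (29.0% called, 14.7% higher and 14.3% lower), and 2 did not overlap (36.5%). The median log2 fold change was -0.03 over the 10 and 0.00 over all genes. KRT80 had 68.5, 63.3 and 53.0 CPM in sh-IGFBP6 erastin and 88.6, 81.4 and 96.2 CPM in sh-IGFBP6 control (log2 fold change -0.43, SE 0.08, edgeR's adjusted p = 9.5e-06; -0.41 and 2.4e-05 without replicate 3). KRT19 had 142, 165 and 98.5 CPM in sh-IGFBP6 erastin and 185, 194 and 158 CPM in sh-IGFBP6 control (log2 fold change -0.26, SE 0.08, edgeR's adjusted p = 0.00517; -0.23 and 0.0111 without replicate 3). The KRT19 libraries overlapped, and its call was lost without replicate 2 of sh-IGFBP6 control (adjusted p = 0.0738) or replicate 1 of sh-IGFBP6 erastin (adjusted p = 0.106). KRT7, KRT8 and KRT18 had log2 fold changes of 0.10, -0.15 and -0.05 and did not pass, KRT8 narrowly (adjusted p = 0.0513). With RLE factors KRT8 passed (edgeR's adjusted p = 0.0245). Without replicate 3 of sh-IGFBP6 erastin KRT8 did not pass (-0.13, edgeR's adjusted p = 0.117). FOXA1 had 36.0, 33.8 and 30.3 CPM in sh-IGFBP6 erastin, the last from 8 counts, and 37.1, 34.3 and 34.3 CPM in sh-IGFBP6 control. EPCAM had 12.4, 14.0 and 22.7 CPM in sh-IGFBP6 erastin, the last from 6 counts, and 12.0, 11.5 and 10.3 CPM in sh-IGFBP6 control, a log2 fold change of 0.24 (SE 0.18, adjusted p = 0.335).

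DHA in sh-IGFBP6 lowered 4 keratins. 4 of the 10 genes were called, all lower (34.2% of all genes called, 17.4% higher and 16.8% lower), and 8 did not overlap (44.0%). The median log2 fold change was -0.63 over the 10 and 0.00 over all genes. Among the called genes KRT19 moved most, with 70.5, 77.2 and 87.6 CPM in sh-IGFBP6 DHA and 185, 194 and 158 CPM in sh-IGFBP6 control (log2 fold change -1.19, SE 0.08, edgeR's adjusted p = 1.0e-23). KRT80 had 50.5, 51.3 and 53.9 CPM in sh-IGFBP6 DHA and 88.6, 81.4 and 96.2 CPM in sh-IGFBP6 control (log2 fold change -0.77, SE 0.08, edgeR's adjusted p = 5.9e-15). Each library with DHA lay below each vehicle library. KRT8 fell by 0.58 (SE 0.06, adjusted p = 5.7e-16) and KRT18 by 0.35 (SE 0.06, adjusted p = 6.0e-07) on the log2 scale. The call of KRT18 was lost with raw library sizes (-0.427, adjusted p = 0.212). KRT7 had a log2 fold change of -0.12 (SE 0.07, adjusted p = 0.201). FOXA1 had 36.1, 34.4 and 35.7 CPM in sh-IGFBP6 DHA and 37.1, 34.3 and 34.3 CPM in sh-IGFBP6 control, a log2 fold change of 0.01 with an SE of 0.11 (adjusted p = 0.977). GATA3 had 3.28, 3.18 and 2.25 CPM in sh-IGFBP6 DHA and 5.39, 4.98 and 3.92 CPM in sh-IGFBP6 control (log2 fold change -0.69, SE 0.29, adjusted p = 0.055). KRT81 and CD24 were near the detection limit, with 5 and 7 counts in sh-IGFBP6 DHA and 14 and 12 counts in sh-IGFBP6 control. The fitted log2 fold change of KRT81 was -1.59 (SE 0.59, adjusted p = 0.052). With RLE factors KRT81 (adjusted p = 0.0483) and GATA3 (0.0463) passed as well, which made 6 of the 10.

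**Figure D4:**
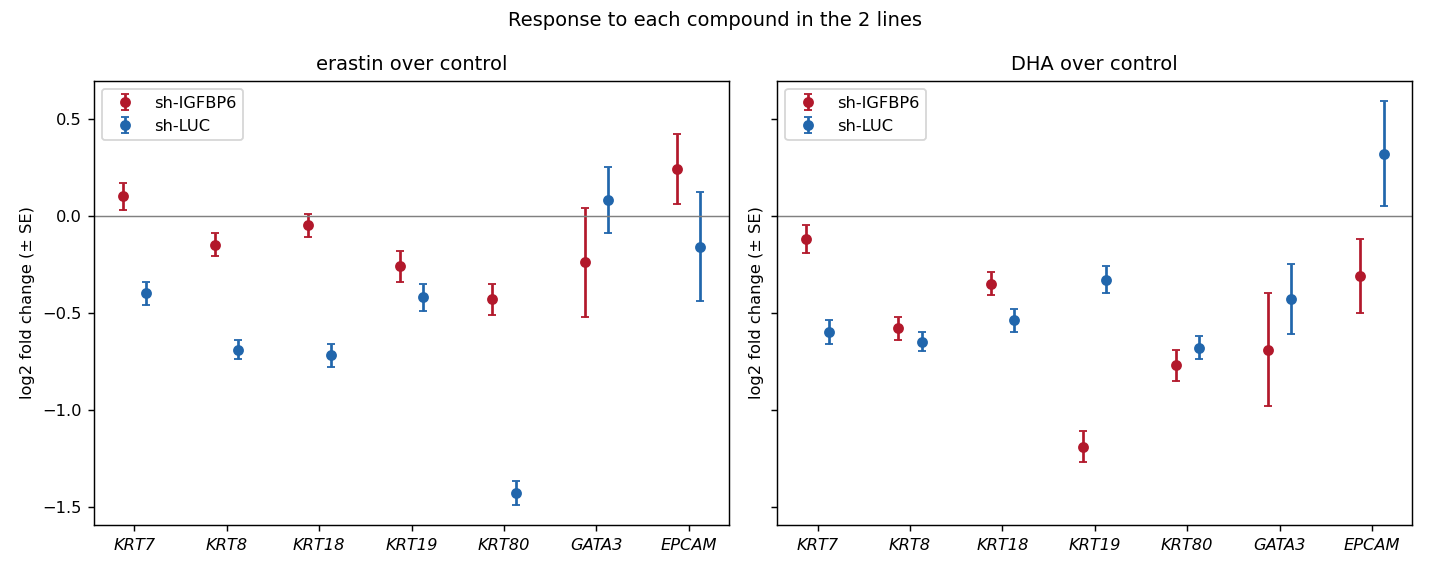
Log2 fold change over vehicle control (vertical axes, ± SE) with erastin (left) and DHA (right) for 7 genes, sh-IGFBP6 in red and sh-LUC in blue; KRT81, FOXA1 and CD24 are left out because one line had few counts. KRT7, KRT8, KRT18 and KRT80 lie lower in sh-LUC than in sh-IGFBP6 with erastin, and KRT19 lies lower in sh-IGFBP6 with DHA.

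The difference between the 2 responses was tested directly, as the response in sh-IGFBP6 minus that in sh-LUC. For erastin it was called for 4 of the 10 genes, all positive (26.2% of all genes called, 14.1% positive and 12.0% negative). It was 1.01 for KRT80 (SE 0.10, edgeR's adjusted p = 3.3e-15), 0.67 for KRT18 (SE 0.08, 5.5e-11), 0.54 for KRT8 (SE 0.08, 1.8e-08) and 0.50 for KRT7 (SE 0.09, 6.1e-06), all on the log2 scale. The responses of these 4 keratins in sh-IGFBP6 thus lay above those in sh-LUC. In sh-IGFBP6 only that of KRT80 was called among the 4, and that of KRT7 was 0.10. Without replicate 3 of sh-IGFBP6 erastin the differences were 1.00, 0.67, 0.54 and 0.48. With raw library sizes edgeR called none of the 10 (1 at an unadjusted p below 0.05), and the differences were 0.834 for KRT80, 0.42 for KRT18, 0.286 for KRT8 and 0.288 for KRT7. With DESeq2 4 were called. KRT19 did not pass (0.16, SE 0.10, adjusted p = 0.252). For DHA the difference was called for 2 of the 10 genes, in opposite directions. That count is near the share of all genes (20.6% called, 10.4% positive and 10.2% negative). The response of KRT7 was less negative in sh-IGFBP6 (0.48, SE 0.09, edgeR's adjusted p = 1.2e-05; 0.352 and 0.642 with raw library sizes), and that of KRT19 was more negative (-0.86, SE 0.10, edgeR's adjusted p = 1.4e-10). The response of KRT8 to DHA was not distinguished between lines (0.07, SE 0.08, adjusted p = 0.607), nor was that of KRT80 (-0.09, SE 0.10, adjusted p = 0.581).

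The other keratins were sparse. Of 49 further keratin genes 6 had enough counts to be tested, among them KRT10, KRT15 and KRT86 with a mean of at least 5 CPM in some group. KRT86, a hair type II keratin, had 15.7 ± 2.49 CPM in sh-LUC DHA (log2 fold change -1.27, SE 0.12, edgeR's adjusted p = 3.9e-16) and 21.7 ± 1.3 CPM in sh-LUC erastin (-0.81, SE 0.12, 1.9e-09), against 38.3 ± 2.49 CPM in sh-LUC control. KRT10, a type I chain of stratified epidermis, had 19.2 ± 1.79 CPM in sh-IGFBP6 control and 18.9 ± 2.23 CPM in sh-LUC control (log2 fold change 0.02, adjusted p = 0.938), and KRT15, a basal type I chain, 3.91 ± 1.28 CPM in sh-IGFBP6 control and 2.95 ± 1.07 CPM in sh-LUC control (0.36, adjusted p = 0.371). With erastin KRT10 was higher in sh-IGFBP6, at 36.3 ± 14.8 CPM in sh-IGFBP6 erastin and 19.2 ± 1.79 CPM in sh-IGFBP6 control (log2 fold change 0.56, edgeR's adjusted p = 5.4e-04; 0.53 and 0.0012 without replicate 3). KRT83 had 0 counts in sh-IGFBP6 control and 30 in sh-LUC control, KRT17 3 counts in sh-IGFBP6 control and 16 in sh-LUC control, and KRT34 31 counts in sh-IGFBP6 control and 5 in sh-LUC control. KRT5, a defining basal keratin, had 1 count in all 18 libraries. Of the 6 tested, 1 was called higher and 3 lower in sh-IGFBP6 control than in sh-LUC control, a share near the 64.6% of all genes. In sh-LUC 1 was higher and 1 lower with erastin (21.4% and 24.4% of all genes), and 1 lower with DHA (9.63%). In sh-IGFBP6 1 was higher with erastin (14.7%). There edgeR called 0 with DHA, where 34.2% of all genes were called (0 of the 6 at an unadjusted p below 0.05). With 6 genes tested, these counts say little of keratins.

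Of the 6 keratins, 5 lie on chromosome 12, as does IGFBP6, the hairpin's target, whose start is 147.5 kb from that of KRT8. Within 1 Mb of the KRT8 start the annotation has 112 genes, and 33 were tested. The 9 keratin-named ones, pseudogene and antisense entries included, were all lower in sh-IGFBP6 than in sh-LUC in vehicle. Of the 23 that are neither keratin-named nor IGFBP6, 13 were higher, 3 lower and 7 not called. Among all tested genes 32.5% were higher and 32.1% lower. The 9 are not all separate observations, because some share sequence. Of the words of KRT81, 37.6% also occur in KRT86, 8.87% in KRT87P and 6.11% in KRT83. KRT7 and KRT7-AS share 282 exon bases, and KRT8 and KRT18 share 525. KRT18 starts 1.1 kb from KRT8 by the 5′ ends of their whole gene spans, which set all these distances. The RefSeq start site of KRT8 among the promoter windows, chr12:52926469, lies inside its span, and distances from it would differ. The next tested genes were EIF4B, a translation initiation factor, at 56.2 kb (log2 fold change 1.12, SE 0.06, edgeR's adjusted p = 8.3e-36), TNS2 at 97.0 kb (0.04, adjusted p = 0.711), TNS2-AS1 at 104.5 kb (0.77, 0.00301) and SPRYD3 at 129.5 kb (0.04, 0.837). In sh-LUC, 7 of the 9 keratin-named genes were lower with erastin and 7 with DHA, against 7 and 4 of the 23 others, where 24.4% and 9.63% of all genes were lower. In sh-IGFBP6, 1 of the 9 was lower with erastin and 3 with DHA, against 7 and 4 of the 23 and 14.3% and 16.8% of all genes.

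**Figure D5:**
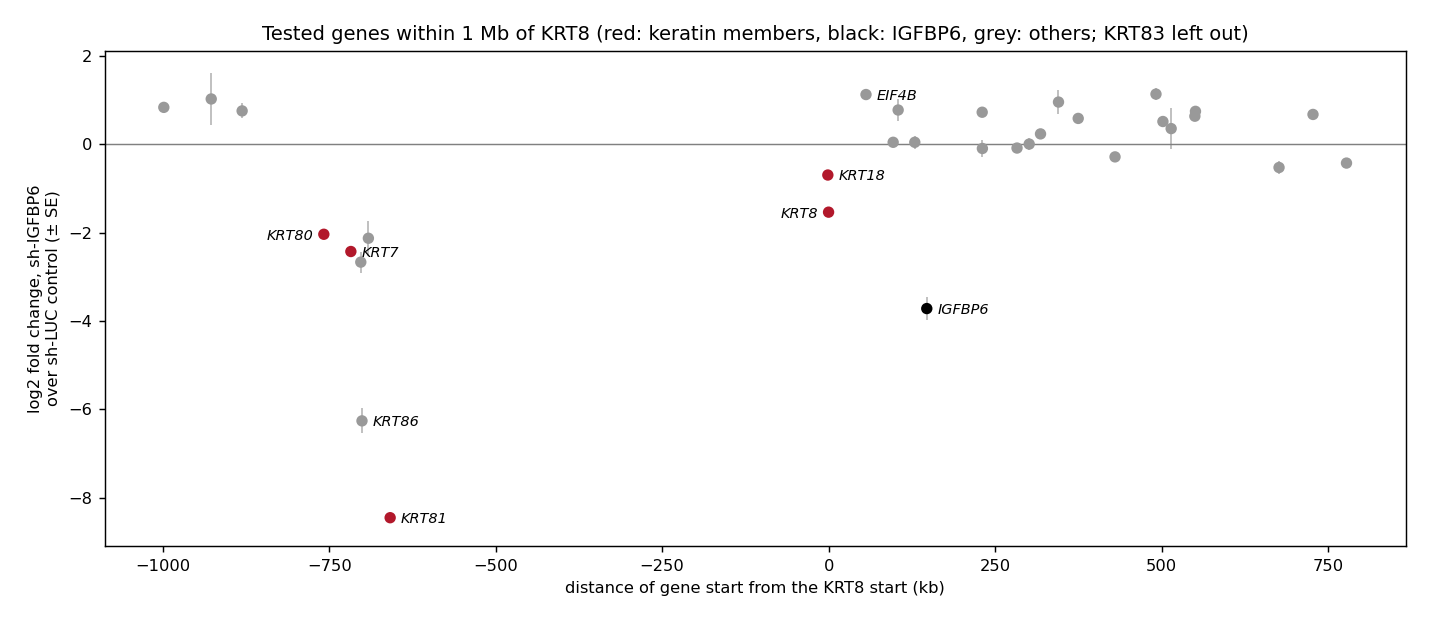
Log2 fold change of sh-IGFBP6 control over sh-LUC control (vertical axis, ± SE) against the distance in kb of each tested gene's start from that of KRT8; keratins of the 10 genes are red, IGFBP6 black, others grey, and KRT83 is left out because it had 0 counts in sh-IGFBP6 control. The keratins lie below 0 in 2 clusters, and EIF4B, the nearest other gene, lies at 1.12.

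Related genes were read from lists by their counts. Of all tested genes, 32.5% were higher and 32.1% lower in sh-IGFBP6 control than in sh-LUC control. In sh-LUC 21.4% were higher and 24.4% lower with erastin, and 7.14% and 9.63% with DHA; in sh-IGFBP6 14.7% and 14.3% with erastin, and 17.4% and 16.8% with DHA. All list counts are set against these shares and are given as a description only. Of 17 tested keratin partners and junction genes, 3 were higher and 12 lower in sh-IGFBP6 control than in sh-LUC control, with a median log2 fold change of -0.65. DSP, which anchors keratin filaments at desmosomes, had 40.9 ± 6.4 CPM in sh-IGFBP6 control and 296 ± 5.79 CPM in sh-LUC control (log2 fold change -2.88, SE 0.08, edgeR's adjusted p = 9.3e-66). JUP, plakoglobin of the same junctions, had 29.0 ± 3.96 CPM in sh-IGFBP6 control and 133 ± 2.58 CPM in sh-LUC control (-2.18), and PLEC, a cross-linker of filaments, 2079 ± 121 CPM in sh-IGFBP6 control and 5531 ± 354 CPM in sh-LUC control (-1.41). In sh-LUC, 4 of these 17 were higher and 10 lower with erastin, led by EVPL, a plakin of desmosomes and the cornified envelope (-1.07), and JUP (-1.23), with the plakin DST higher (0.66), and 3 were higher and 5 lower with DHA. In sh-IGFBP6, 6 were higher and 3 lower with erastin and 1 higher and 8 lower with DHA. Among these, the 4 higher with erastin in sh-LUC and the 3 lower with erastin in sh-IGFBP6 are near the shares of all genes (21.4% and 14.3%). JUP in sh-IGFBP6 was higher with erastin (0.75, SE 0.11, edgeR's adjusted p = 4.7e-08), and PKP2, another desmosomal protein, was lower there with DHA (-1.07). Without replicate 3 of sh-IGFBP6 erastin, the value of JUP with erastin was 0.76.

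Of 21 tested luminal factors and receptors, 7 were higher and 12 lower in sh-IGFBP6 control than in sh-LUC control, with a median log2 fold change of -0.55. SPDEF, an ETS factor of secretory epithelium, had 0.655 ± 0.607 CPM in sh-IGFBP6 control and 50.6 ± 3.81 CPM in sh-LUC control (log2 fold change -6.27, SE 0.25, edgeR's adjusted p = 1.8e-46). TFAP2C had 12.3 ± 1.74 CPM in sh-IGFBP6 control and 120 ± 2.71 CPM in sh-LUC control (-3.28), and TLE3, a corepressor, 67.4 ± 6.69 CPM in sh-IGFBP6 control and 254 ± 21.8 CPM in sh-LUC control (-1.92). In sh-LUC 3 were higher and 10 lower with erastin, and 2 and 2 with DHA. In sh-IGFBP6 3 were higher and 3 lower with erastin, and 3 and 7 with DHA. Among the counts near the shares of all genes are the 7 higher between the vehicle lines and the 3 higher with DHA in sh-IGFBP6. So are the 2 and 2 with DHA in sh-LUC and the 3 and 3 with erastin in sh-IGFBP6. XBP1, which also acts in the unfolded protein response, was higher with each compound in each line, by 0.88 and 0.80 with erastin and DHA in sh-IGFBP6 and by 1.29 and 0.29 in sh-LUC. ERBB3, a growth factor receptor, was lower in sh-IGFBP6 with erastin (-0.78) and with DHA (-1.11). Without replicate 3 of sh-IGFBP6 erastin, the erastin values of XBP1 and ERBB3 in sh-IGFBP6 were 0.87 and -0.75.

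Of 20 tested epithelial surface genes, 3 were higher and 14 lower in sh-IGFBP6 control than in sh-LUC control, with a median log2 fold change of -0.97. CD82, a tetraspanin, had 2.12 ± 0.172 CPM in sh-IGFBP6 control and 54.3 ± 3.43 CPM in sh-LUC control (log2 fold change -4.66, SE 0.18, edgeR's adjusted p = 2.9e-48). SPINT1, a serine protease inhibitor of epithelia, had 3.23 ± 1.53 CPM in sh-IGFBP6 control and 58.1 ± 8.4 CPM in sh-LUC control (-4.26), and ADAM10, a membrane sheddase, 129 ± 8.4 CPM in sh-IGFBP6 control and 402 ± 17.9 CPM in sh-LUC control (-1.63). EPCAM, which is higher, differed in direction from most of these. In sh-LUC 4 were higher and 8 lower with erastin, and 3 and 6 with DHA. In sh-IGFBP6 4 were higher and 2 lower with erastin, and 3 and 5 with DHA. Among these, the 4 higher with erastin in sh-LUC and the 3 higher with DHA in sh-IGFBP6 are near the shares of all genes (21.4% and 17.4%). CLDN4, a tight junction protein, was higher in sh-IGFBP6 with erastin (0.99, SE 0.09) and DHA (1.07, SE 0.09). Its erastin value was 1.0 without replicate 3 of sh-IGFBP6 erastin.

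The lower values were not confined to luminal genes. Of 12 tested basal and myoepithelial markers, 3 were higher and 7 lower in sh-IGFBP6 control than in sh-LUC control, with a median log2 fold change of -1.37. ITGB4, the integrin of hemidesmosomes, had 18.4 ± 3.2 CPM in sh-IGFBP6 control and 325 ± 21.0 CPM in sh-LUC control (log2 fold change -4.13, SE 0.09, edgeR's adjusted p = 2.2e-76). MYLK had 32.4 ± 4.41 CPM in sh-IGFBP6 control and 243 ± 9.94 CPM in sh-LUC control (-2.90), and LAMA3, a laminin chain, 11.3 ± 2.21 CPM in sh-IGFBP6 control and 71.3 ± 6.59 CPM in sh-LUC control (-2.65). In sh-LUC 2 were higher and 6 lower with erastin, and 3 and 5 with DHA. In sh-IGFBP6 2 were higher and 3 lower with erastin, and 2 and 4 with DHA. Among these, the 2 higher with each compound in sh-IGFBP6 are near the shares of all genes (14.7% with erastin and 17.4% with DHA). Without replicate 3 of sh-IGFBP6 erastin, the erastin counts in sh-IGFBP6 were 6 and 3, 3 and 3, 4 and 2, and 2 and 3 for the 4 lists in the order given.

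For each gene with a mean of at least 10 CPM, the tested genes with the most similar pattern were sought among 9906. Likeness was the mean absolute difference, on the log2 scale, between the 6 group means, each centred on the gene's own mean; it describes only 6 groups. KRT7 lay nearest to MFGE8 (0.066), TENM3 and SH3BGRL, and KRT8 to PLSCR4 (0.084), TCAF1 and CNN3. KRT80 lay nearest to SERTAD4 (0.075), ELFN2 and SDC3. Of the type I chains, KRT18 lay nearest to DSEL (0.069), DDAH2 and RAB5B, and KRT19 to SLC39A10 (0.079), RAB30 and DIAPH3. The genes nearest to FOXA1 were FKBP10 (0.2), MCTP2 and CTNNA3, those nearest to CD24 were KRT86 (0.18), MAL2 and S100A4, and those nearest to KRT81 were CHST15 (0.323), LYPD6B and INHBB. Without replicate 3 of sh-IGFBP6 erastin FKBP10 (0.213) and KRT86 (0.15) again came first for FOXA1 and CD24, and other genes came first for the 6 keratins. Of these 8 genes, each set against the other 9 of the 10, KRT18 and KRT19 were each other's nearest (0.21), and FOXA1 was farthest from its nearest, EPCAM (2.256).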

How the data were processed

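The 18 libraries were made from rRNA-depleted RNA with an MGIEasy kit, per the labels' protocols. The submitters' processing notes name cutadapt 4.4, STAR 2.7.7a, featureCounts and the build GRCh38. Per the labels, the table holds raw counts per gene, not normalized. Neither the strand setting nor the annotation release is given in the sources used, so reads of KRT8 and KRT18, whose exons share 525 bases on opposite strands, and of KRT7 and KRT7-AS (282 bases) cannot be told apart there. Annotated pseudogenes, counted apart from their parent genes, had counts equal to 2.71% to 10.7% of the count of KRT8 and 2.07% to 10.6% of that of KRT18. The 10.6% came from replicate 3 of sh-IGFBP6 erastin, from 5 pseudogene and 47 KRT18 counts. These shares differed by group. For KRT8 they were 7.76% to 8.11% in sh-IGFBP6 control and 2.71% to 3.44% in sh-LUC control. For KRT18 they were 6.35% to 7.55% in sh-LUC erastin and 2.07% to 3.18% in sh-LUC control. The part of this in the keratin results was not tested.

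The table had 60709 genes with counts. 1 gene with blank counts and 2 lines naming no gene (at most 0.01082% of a library) were left out. Coordinates are from GENCODE 29. edgeR 4.0.16 in R 4.3.3 was used with TMM factors, filterByExpr (minimum count 10, total 15), 1 coefficient per group over all 18 libraries and quasi-likelihood F tests with 12 residual degrees of freedom, with calls at an adjusted p (Benjamini-Hochberg) under 0.05. The 9 comparisons were the 2 lines in each condition, each compound in each line, and the difference between lines in each response. CPM are counts over TMM effective library size. The standard error is the log2 fold change over the root of F. The pipeline was tested on simulated data. Intervals of ratios cover counting error only, and PCR copies are not independent.

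The genes and lists (other keratins, keratin partners and junctions, luminal factors and receptors, epithelial surface, basal markers, genes near KRT8) were chosen with earlier results of these data known. Named from each list were up to 3 called genes with the smallest p and a mean of at least 5 CPM, the 6 nearest tested neighbours of KRT8, and the 3 genes most like each of the 8 with a mean of at least 10 CPM. Alternatives were RLE factors, raw library sizes, no filter, DESeq2 1.42.0, only the groups compared, a replicate block, removal of MT-RNR1 and MT-RNR2, and leaving out each library. 1 leukocyte marker is not reported here. Same-numbered libraries did not deviate together (correlations of -0.04 to 0.048), so no pairing by number was seen. With 3 libraries per group this cannot exclude a shared batch or culture.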

Additional observations from a re-analysis of the deposited data

Results flagged for a closer look

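These 6 results concern a response that differed between the lines, by the test of the difference itself (edgeR, Benjamini-Hochberg adjusted over 15189 genes). With erastin, the response of sh-IGFBP6 minus that of sh-LUC was 1.01 for KRT80, 0.67 for KRT18, 0.54 for KRT8 and 0.5 for KRT7 on the log2 scale. For KRT80 the responses themselves were -0.43 in sh-IGFBP6 and -1.43 in sh-LUC. With DHA it was 0.48 for KRT7, whose responses were -0.12 in sh-IGFBP6 and -0.60 in sh-LUC, and -0.86 for KRT19, whose responses were -1.19 in sh-IGFBP6 and -0.33 in sh-LUC. The starting levels also differed, KRT7, KRT8, KRT18 and KRT80 being lower in sh-IGFBP6 control than in sh-LUC control, and the part of that difference in these results was not tested.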

How the results depend on the processing

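Over 1344 recomputed values of the 10 genes, 1290 kept their direction and side of the threshold, 17 lost their call, 10 gained one and 27 changed sign, none of these 27 among called values. Raw library sizes changed most. They gave 4591 called genes for erastin in sh-LUC (main 6966; 31.8% higher against 46.7%), 759 for DHA in sh-LUC (2546), 2744 for erastin in sh-IGFBP6 (4404; 23.3% higher against 50.5%), 2587 for DHA in sh-IGFBP6 (5202; 33.3% against 50.8%), 1337 for the difference in erastin response (3974) and 1055 for that in DHA response (3126; 26.6% against 50.6%). Of the 10 genes they called 1 for DHA in sh-LUC (main 7), 0 for the difference in erastin response (4; 1 at an unadjusted p below 0.05) and 1 for that in DHA response (2). With them the median log2 fold change of all genes was 0.105 in the vehicle lines (main 0.006), -0.184 for erastin in sh-IGFBP6 (0.004), -0.123 for erastin in sh-LUC (-0.016) and -0.137 for the difference in DHA response (-0.003). KRT19 between vehicle lines was then -0.14 (edgeR's adjusted p = 0.609). DESeq2 called 1537 genes for DHA in sh-LUC, 2639 for the difference in erastin response and 1982 for that in DHA response. Replicate 3 of sh-IGFBP6 erastin had a TMM factor of 0.433, against 0.952 to 1.12 in the other libraries. Raw library sizes leave these factors out, and all 18 libraries share 1 estimate of the spread, also for comparisons without that library. The cause of these differences was not tested.

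Signs changed with raw library sizes for GATA3 with erastin in sh-LUC (-0.03), KRT7 (-0.223) and CD24 (-0.111) with erastin in sh-IGFBP6, FOXA1 with DHA in sh-IGFBP6 (-0.075), KRT19 in the erastin difference (-0.056) and KRT8 in the DHA difference (-0.063). With RLE factors they changed for CD24 with erastin (-0.002) and FOXA1 with DHA (-0.016) in sh-IGFBP6. FOXA1 there was -0.021 with no filter, -0.016 with DESeq2 and -0.005 with only the compared groups, and KRT8 in the DHA difference was -0.029 with no filter. Leaving out single libraries gave, for FOXA1, -2.321 to 1.559 with DHA in sh-LUC, -1.553 to 2.329 in the DHA difference, -0.081 to 0.025 with erastin and -0.024 to 0.04 with DHA in sh-IGFBP6. It gave -0.278 to 0.435 for CD24 and -0.064 to 0.219 for KRT7 with erastin in sh-IGFBP6, and -0.006 to 0.106 for KRT8 in the DHA difference. It gave 1 to 3 of the 10 genes called with erastin in sh-IGFBP6, with 1 called without replicate 2 of sh-IGFBP6 control or replicate 1 of sh-IGFBP6 erastin. FOXA1 with erastin in sh-LUC passed only without replicate 1 of sh-LUC control (4.47, adjusted p = 0.031).

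A replicate block was also fitted, although no pairing by number was seen. The counts of the 10 genes called were then unchanged in all 9 comparisons. All genes called numbered 9841 for the vehicle lines, 4394 for erastin and 5304 for DHA in sh-IGFBP6, and 7025 for erastin and 2643 for DHA in sh-LUC. Depth limits FOXA1 in sh-LUC and KRT81 and CD24 in sh-IGFBP6, where counts per library were 0 to 12.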
